A study of Homo sapiens with 4 samples.

Results

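TCF7L2 binding in LNCaP cells was examined where peaks stood close together. LNCaP is a human cell line from prostate cancer that responds to androgens, and TCF7L2 is a DNA-binding factor of the TCF/LEF family. All 20955 TCF7L2 peaks were sorted by position, and neighbors on a chromosome were chained when at most 10 kb lay between the end of one and the start of the next. Chains of 4 or more peaks numbered 587 and held 3248 peaks, 15.5% of the list. The members were chosen by the positions of the TCF7L2 peaks, so their number, spacing and heights are given as a description without a test. A further 6615 peaks lay in 2969 chains of 2 or 3, and 11092 peaks stood alone.

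The data were 3 ChIP-seq libraries, with 1 library per condition. TCF7L2 was precipitated from cells of passage 15 in serum that still held its steroids. H3K27Ac was precipitated from cells of passage 20 in charcoal-stripped serum, which lacks most steroid hormones, after ethanol vehicle or after 10 nM DHT, an androgen, for 4 h. The antibody target, the serum and the passage therefore differ together between the TCF7L2 list and both H3K27Ac lists. By the paper, the sequencer, the aligner, the amounts of chromatin and antibody and the settings of peak calling differ between them too. The parts of all these cannot be told apart. No spread between cultures could be had, and 95% Wilson intervals in parentheses beside shares cover counting error only. Peaks of a chain share a library and a locus and are not replicates.

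TCF7L2 recruits β-catenin to DNA when the Wnt pathway is active, and the genes it then turns on include inhibitors of the pathway itself, such as AXIN2, RNF43 and ZNRF3. It is best known from the epithelium of the intestine, where it maintains stem cells. Acetylation of histone H3 at lysine 27 (H3K27Ac) marks promoters and enhancers in use.

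The sequences that follow are 101-base windows around the centers of peaks in 4 chains, on the plus strand of GRCh37 (hg19), with CTTTGAA or CTTTGAT, the letters TCF7L2 binds, in capitals on either strand. After a chain inside NSMCE2, for which no sequence is shown, that inside VTI1A had the most members with these letters, 5 of 16. These are shown first, followed by the tallest peak of the same chain, which lacked them. The tallest members of the BLID and ERRFI1 chains held the letters, and that of the KLF14 chain did not.
VTI1A, 25 tags, chr10:114267099-114267199: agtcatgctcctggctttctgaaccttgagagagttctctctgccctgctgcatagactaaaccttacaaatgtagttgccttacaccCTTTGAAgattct
VTI1A, 223 tags, chr10:114277374-114277474: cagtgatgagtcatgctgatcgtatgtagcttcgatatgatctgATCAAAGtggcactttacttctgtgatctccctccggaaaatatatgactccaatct
VTI1A, 24 tags, chr10:114295389-114295489: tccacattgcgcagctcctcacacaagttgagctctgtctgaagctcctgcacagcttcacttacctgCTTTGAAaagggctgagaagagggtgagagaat
VTI1A, 226 tags, chr10:114296529-114296629: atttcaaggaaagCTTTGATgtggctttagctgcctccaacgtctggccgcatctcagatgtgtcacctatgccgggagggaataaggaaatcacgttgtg
VTI1A, 45 tags, chr10:114298149-114298249: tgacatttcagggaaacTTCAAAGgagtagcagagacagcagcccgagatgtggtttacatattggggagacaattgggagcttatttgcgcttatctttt
VTI1A, 229 tags, chr10:114279129-114279229: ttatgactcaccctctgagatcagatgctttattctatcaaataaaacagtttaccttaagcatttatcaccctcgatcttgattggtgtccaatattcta
BLID, 183 tags, chr11:122020149-122020249: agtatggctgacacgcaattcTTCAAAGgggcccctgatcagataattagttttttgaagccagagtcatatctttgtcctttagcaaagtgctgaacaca
ERRFI1, 119 tags, chr1:8154864-8154964: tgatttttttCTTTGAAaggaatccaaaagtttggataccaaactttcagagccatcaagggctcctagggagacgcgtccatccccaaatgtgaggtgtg
KLF14, 219 tags, chr7:130579434-130579534: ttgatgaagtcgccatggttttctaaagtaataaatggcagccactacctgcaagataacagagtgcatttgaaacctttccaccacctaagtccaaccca
The windows show that the letters were found at some tall and some low members of one chain, and that some of the tallest members had none at their center. The 5 VTI1A windows with the letters were picked for having them, so they give no share by height.

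The cell type named on the labels was checked against markers. H3K27Ac of both lists stood over the promoters of 10 of 10 luminal prostate genes, 0 of 4 basal, 0 of 3 leukocyte, 1 of 4 neuroendocrine, 3 of 4 stromal and 2 of 2 endothelial markers. In longer lists, vehicle H3K27Ac stood over promoters of 4 of 10 basal, 2 of 10 leukocyte and 1 of 10 neuroendocrine genes. It also stood over those of 4 of 10 stromal and 2 of 7 endothelial genes. Of all protein-coding genes, 56.3% had vehicle H3K27Ac over a promoter. PECAM1, also chosen as an endothelial marker, was not matched to a gene. A TCF7L2 peak lay within 50 kb of 7 of those 10 luminal genes, beside 66.8% of all protein-coding genes. Such a peak also lay there for 4 of 4 basal, 3 of 3 leukocyte and 2 of 4 neuroendocrine markers. So it did for 3 of 4 stromal and 2 of 2 endothelial markers. In the longer lists the counts were 9 of 10 basal, 5 of 10 leukocyte and 7 of 10 neuroendocrine genes. They were 6 of 10 stromal and 5 of 7 endothelial genes. The antibody, the serum, the passage and the steps of sequencing and peak calling differed between the TCF7L2 and H3K27Ac libraries. Whether anything else differed was not tested.

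Most chains were small. There were 274 chains of 4 peaks, 132 of 5, 72 of 6, 29 of 7, 56 of 8 to 11 and 24 of 12 or more, and 677 chains of 3 fell just short. The median span was 14.0 kb, from 1.86 to 98.6 kb. Gaps between members had a median of 2101 bp. The widest gap inside a chain was 9991 bp and the narrowest that ended one was 10021 bp, with 105 gaps of at least 9000 bp inside and 267 of up to 11 kb outside. Cutting each chain at its widest gap would leave 349 chains with fewer than 4 peaks on either side. These include all 274 chains of 4, which any cut would take below 4. At the other end, 474 of 2661 gaps (17.8%) were at most 500 bp. Counting such neighbors as 1 peak left 432 chains.

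The height of a peak is the number of tags piled up at it, as deposited. Members had a median height of 40 tags (quartiles 25 and 80), against 33 tags in chains of 2 or 3 and 29 tags at lone peaks. Members made up 20.4% of the summed height of the list and 98 of its 199 peaks of at least 200 tags. No TCF7L2 peak exceeded 229 tags, and heights of 220 to 229 were still borne by 56 peaks, beside 75 peaks of 200 to 209. The sources used here do not say whether taller peaks were left out, and a chain with such peaks would be counted here without them. Within a chain the tallest member was a median of 1.47 times as tall as the next. In 153 chains it was at least 2 times as tall, and in 32 chains no member reached 40 tags.

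**Figure D1:**
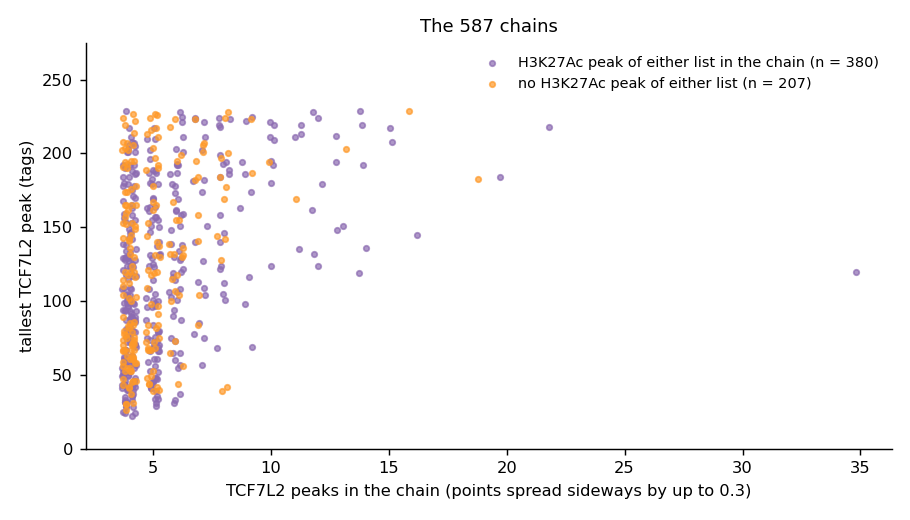
Each point is 1 of the 587 chains, with the number of its TCF7L2 peaks on the horizontal axis and the height of its tallest TCF7L2 peak in tags on the vertical axis. The 207 chains without an H3K27Ac peak of either list (orange) are found over the whole range of heights, up to a chain of 19 peaks.

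Chains were spread over promoters, gene bodies and the space between genes. A promoter of a protein-coding gene, taken as 1000 bp upstream to 100 bp downstream of a start, lay under a member of 196 chains (33.4%, 29.7 to 37.3%). A further 209 chains (35.6%) had a member in a gene body, and 182 (31.0%) lay between genes, at a median of 78.8 kb from the nearest start. The members themselves were less often at promoters than other peaks. Of 3248 members 346 (10.7%, 9.64 to 11.8%) overlapped a promoter, beside 19.6% of all TCF7L2 peaks, 17.9% of those in chains of 2 or 3 and 23.2% of lone peaks. Per chromosome, chains were densest on chromosome 17, with 5.05 per 10 Mb, and sparsest on X, with 0.258. TCF7L2 peaks of any kind numbered 14.9 per Mb on chromosome 17 and 2.29 on X. As a share of a chromosome's TCF7L2 peaks, members were 18.8% on chromosome 17 and 5.35% on X, and reached 23.9% on chromosome 8.

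The chain with the most peaks ran through the divergent starts of FANK1 and DHX32 on chromosome 10, from 127567830 to 127616069. Its 35 peaks were low, from 18 to 120 tags with a median of 27, and close together, with a median gap of 466 bp. Of its members, 10 lay over vehicle H3K27Ac, and H3K27Ac in it reached 67 tags with vehicle and 72 with DHT.

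PPP3CA, which encodes the catalytic subunit of the phosphatase calcineurin, had 22 peaks over 98.6 kb on chromosome 4, from 102023550 to 102122129. They reached 218 tags, and all 22 lay over a single vehicle H3K27Ac peak of 147 tags that covered the whole chain. This listed peak was very wide, from -28650 to 165479 bp relative to the chain's first base. The median width of all vehicle peaks was 1770 bp. In the DHT list the chain was covered by peaks of 57 and 154 tags. The chain at MTHFD1L, a gene of mitochondrial folate metabolism, had 20 peaks of 19 to 184 tags and 7 vehicle peaks, the tallest of 56 tags. It thus had nearly as many TCF7L2 peaks as PPP3CA over a stretch of which 15.7% was acetylated.

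Some of the largest chains lacked H3K27Ac or nearly so. That nearest to the start of BLID, 20.8 kb away on chromosome 11, had 19 peaks from 19 to 183 tags, all within MIR100HG, the host gene of a cluster of microRNAs. VTI1A, a gene of vesicle transport that neighbors TCF7L2 itself, had 16 peaks in its body on chromosome 10, from 114266970 to 114319439. The tallest reached 229, 226 and 223 tags, as tall as any peak of the list, and no H3K27Ac peak of either list lay between the chain's ends. A chain of 15 peaks at 112 kb from KRR1 reached 217 tags and met only a DHT peak of 14 tags, and its neighbor of 13 peaks, reaching 203 tags, met none.

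Other large chains were acetylated in part. HS3ST1, which modifies heparan sulfate, had a chain of 16 peaks at 156 kb, of which 3 lay over vehicle H3K27Ac. So did 6 of the 15 peaks inside NSMCE2 and 5 of the 14 inside RAD51B, a gene of DNA repair. The chain of 14 peaks within LINC-PINT, nearest to KLF14 among protein-coding starts, reached 219 tags, with 2 members over a vehicle peak of 28 tags. A chain of 14 peaks at 77.3 kb from the start of FAT1, a protocadherin gene, reached 229 tags. The tallest acetylation in it was 11 tags with vehicle and 28 with DHT. Another chain, at the FAT1 promoter, had H3K27Ac of 24 and 38 tags. ERRFI1, which encodes an inhibitor of the EGF receptor, had 14 peaks of 20 to 119 tags, with 3 members over vehicle and 6 over DHT H3K27Ac.

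**Figure D2:**
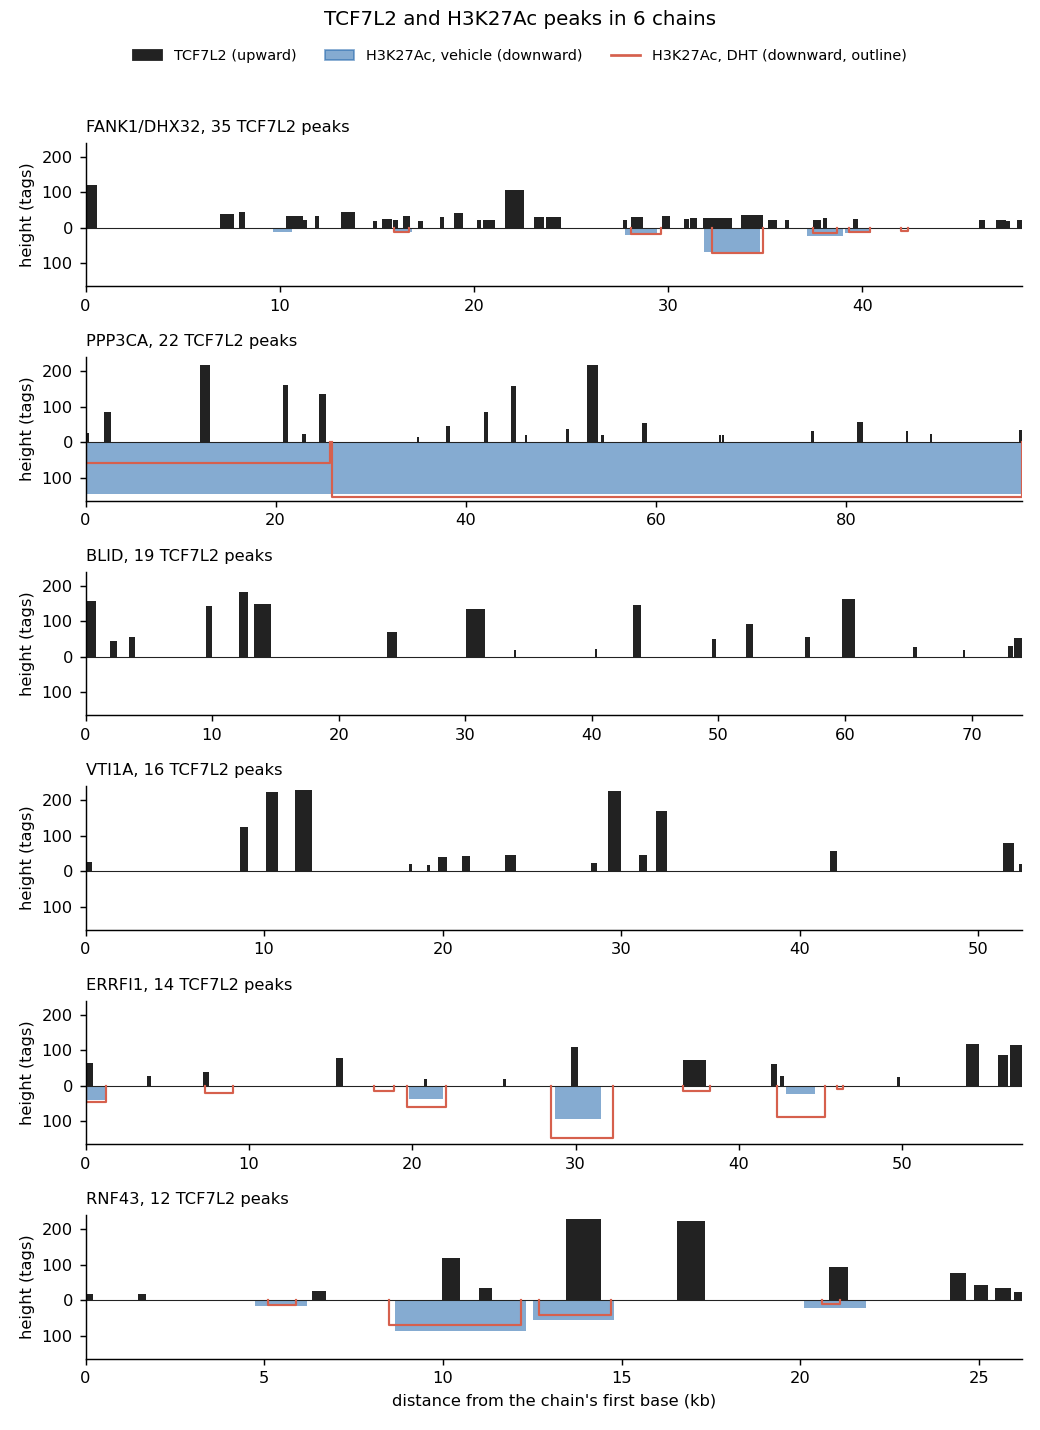
Peaks of 6 chains by distance from the chain's first base in kb. Heights in tags are drawn upward for TCF7L2 (black) and downward for H3K27Ac with vehicle (blue) and with DHT (red outline), cut at the chain's ends. All 22 PPP3CA members lie over 1 vehicle peak of 147 tags, and the BLID and VTI1A chains have no H3K27Ac peak.

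Among chains with the tallest members were those nearest to FAT1, FGF20 (229 tags, 4 peaks), TRIB1 (228 tags, 8 peaks), SERP2 (228 tags, 6 peaks) and RNF43 (228 tags, 12 peaks), besides VTI1A. FGF20 encodes a growth factor, and TRIB1 a pseudokinase. The chains lay 163 kb from the start of FGF20, 246 kb from TRIB1 and 60.2 kb from SERP2. H3K27Ac inside them reached 12 tags with vehicle and 15 with DHT near FGF20, and 41 and 64 tags near SERP2. The chain nearest to TRIB1 had none in either list. Another chain, at the promoter of TRIB1 itself, had H3K27Ac of 64 tags with vehicle and 80 with DHT.

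Some genes of the Wnt pathway had a chain nearby, and most did not. Within 50 kb of the gene, a chain was found for 8 of 30 Wnt targets and feedback genes (26.7%, 14.2 to 44.4%), beside 4.35% of all protein-coding genes. A TCF7L2 peak of any kind lay there for 28 of the 30, beside 66.8% of all protein-coding genes. RNF43, a ligase that removes Wnt receptors from the cell surface, had 12 peaks from 56455140 to 56481359 on chromosome 17. They reached 228 and 224 tags, 2 of them were at a promoter, and 4 lay over H3K27Ac, at most 88 tags tall with vehicle and 71 tags with DHT.

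ZNRF3, the close relative of RNF43, had 3 chains of 5, 5 and 4 peaks, reaching 187, 165 and 146 tags. The first overlapped H3K27Ac of 68 tags with vehicle and 105 with DHT, the second none, and the third 17 and 20 tags. The third also lay within 50 kb of KREMEN1, which encodes a receptor for the DKK1 protein. AXIN2, a scaffold of the complex that destroys β-catenin, had 2 chains of 6 peaks each. The chain over its promoter reached 225 tags, with 35 tags of H3K27Ac with vehicle and 41 with DHT. The other, from 63510180 to 63528689, had 2 of its 6 members in the gene body. It lay 4.11 kb from the nearest annotated start of any AXIN2 transcript, and the promoter chain began at 63538710. It reached 218 tags and had no H3K27Ac.

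DKK1, a secreted Wnt inhibitor, had 4 peaks up to 174 tags with 1 at its promoter, and CD44, a cell surface receptor, had chains of 6 and 4 peaks up to 55 and 45 tags. H3K27Ac was absent between the ends of the DKK1 chain and of the CD44 chain at the promoter. It stood at 29 tags with vehicle and 23 with DHT in the other CD44 chain. Outside the ends of its promoter chain, CD44 did have H3K27Ac over a promoter in both lists, and DKK1 had none in either. TCF7L2 itself had 4 peaks up to 67 tags in its body, with no H3K27Ac. MYC, a transcription factor that drives growth, had 8 peaks, 6 of which lay over 1 H3K27Ac peak of 101 tags with vehicle and 107 with DHT. Its tallest member had 224 tags, 4 members were at the promoter and 4 held the TCF7L2 letters. The chains of the Wnt genes thus ranged from mostly acetylated to free of the mark.

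The androgen-induced genes had no chain within 50 kb. Of 30 such genes, among them KLK3, TMPRSS2 and FKBP5, 0 had a chain (0 to 11.4%), an interval that includes the 4.35% of all protein-coding genes. A TCF7L2 peak lay there for 23 of the 30, beside 66.8% of all genes, and 26 had vehicle H3K27Ac over a promoter, beside 56.3% of all genes. Of 20 genes of luminal and pioneer factors only ELF3, which encodes an ETS factor of epithelia, had a chain. Its 7 peaks were low, 26 to 78 tags, and 6 of them lay over H3K27Ac of up to 135 tags with vehicle and 119 with DHT. Of 56 genes named at prostate cancer risk loci 5 had a chain, COMMD10, PDLIM5 and THADA among them. Of the other lists, chains lay near 2 of 14 housekeeping genes, 2 of 10 basal genes (DST and ITGB4), 1 of 10 stromal genes (COL1A1), and 0 of 10 neuroendocrine, 0 of 10 leukocyte and 0 of 7 endothelial genes. Of 12 genes of the intestinal epithelium, a list added after the data had been seen, KRT20 and KRT23 had a chain. Lists of this size leave wide intervals, and no test of the lists was made.

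Some loci held several chains. Another chain lay within 50 kb of 151 of the 587 chains, and 92 genes had 2 or more chains in or within 50 kb of them. The genes with the most, named after their values were seen, were RAD51B with 8 chains and 50 peaks, PCDH7, a protocadherin gene, with 6 chains and 44 peaks, and NSMCE2, VTI1A and SMAD3 with 4 chains each and 38, 35 and 31 peaks. SMAD3 transmits TGF-β signals. These are mostly long genes, RAD51B spanning 910 kb and PCDH7 426 kb, and SMAD3 was shorter, at 131 kb.

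Members overlapped H3K27Ac less often than other TCF7L2 peaks. By at least 1 bp, 841 of 3248 members (25.9%, 24.4 to 27.4%) lay over a vehicle peak, beside 32.6% of all TCF7L2 peaks, 35.1% (33.9 to 36.2%) of those in chains of 2 or 3 and 33.0% (32.2 to 33.9%) of lone peaks. With DHT, 871 members (26.8%, 25.3 to 28.4%) did so, beside 33.2% of all, 35.7% in chains of 2 or 3 and 33.5% of lone peaks. These shares were not tested against each other, since peaks of 1 library are not replicates.

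The order depended on place. At promoters, 54.3% of members (49.1 to 59.5%) lay over vehicle H3K27Ac, against 72.5% in chains of 2 or 3 and 77.2% of lone peaks. Away from promoters the share was 22.5% for members (21.0 to 24.1%), 26.9% for chains of 2 or 3 and 19.7% for lone peaks, so that members were there above lone peaks. With DHT the values were 55.2%, 74.2% and 78.1% at promoters and 23.4%, 27.4% and 20.0% away from them. The lower share over all members therefore went with fewer members at promoters and with a lower share at those promoters.

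Over all places together, the gap between members and lone peaks was seen in each of 4 bands of TCF7L2 height and was narrowest in the highest. Of members of 15 to 24 tags, 28.9% lay over vehicle H3K27Ac, beside 34.4% of lone peaks of the same heights. The shares were 26.0% and 34.1% at 25 to 39 tags, and 23.6% and 32.1% at 40 to 79 tags. Of those of 80 to 229 tags the shares were 25.2% and 26.9%, with intervals of 22.3 to 28.3% and 24.4 to 29.6% that overlap. Away from promoters the order was mostly the other way. Members of 15 to 24 tags were above lone peaks there, at 23.9% against 17.3%. The shares were 21.8% and 19.6% at 25 to 39 tags and 23.5% and 21.8% at 80 to 229 tags. At 40 to 79 tags members were below, at 20.9% against 22.4%. In all but the lowest band these intervals overlap. By the size of the chain, the share was 28.9% in chains of 4, 26.6% in chains of 5 to 7, 20.1% in chains of 8 to 11 and 22.2% in chains of 12 to 35 peaks. The last share counts all 22 PPP3CA members, which lay over 1 very wide vehicle peak. Where members met vehicle H3K27Ac, it had a median of 54 tags per member, beside 47 tags per peak in chains of 2 or 3 and 40 tags at lone peaks. These medians count an H3K27Ac peak once for each TCF7L2 peak over it. With each H3K27Ac peak that had a partner in the DHT list counted once, the medians were 38 tags under members, 42 tags at chains of 2 or 3 and 40 tags at lone peaks, so the order turned.

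**Figure D3:**
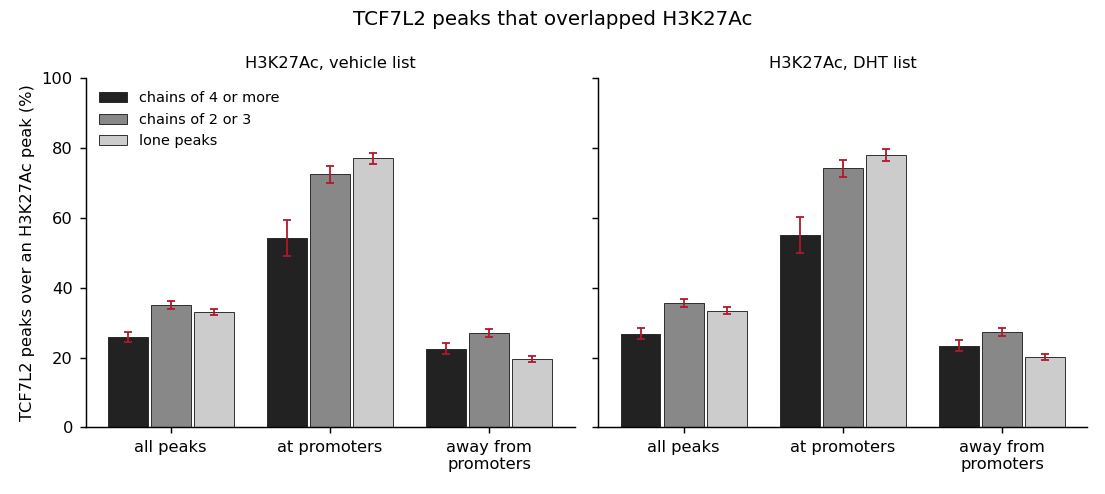
Share of TCF7L2 peaks in percent that overlapped an H3K27Ac peak of the vehicle list (left) and the DHT list (right), for members of chains of 4 or more, chains of 2 or 3 and lone peaks, over all places, at promoters and away from them. Error bars are 95% Wilson intervals. Members are lowest at promoters, at 54.3% with vehicle, and lie between the other classes away from them.

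Read by chain, acetylation was often partial. With vehicle, 36 chains had every member over H3K27Ac, 297 had some and 254 had none. With DHT the numbers were 36, 306 and 245. Neither list had a peak anywhere between the ends of 207 chains (35.3%), which held 1062 members. Such chains made up 19.9% of those at promoters, 38.3% of those in gene bodies and 48.4% of those between genes, and 39 of 77 chains over 100 kb from any start. Larger chains offer more room for a peak, and 12.5% of chains of 12 to 35 peaks lacked one, beside 38.3% of chains of 4. The TCF7L2 peaks in them were not lower, with a median of 42 tags against 39 tags in the other chains.

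The largest chains without H3K27Ac were those at BLID, VTI1A and KRR1 already described, followed by TGFBR2, DCBLD2 and the gene model ENSG00000285635. TGFBR2 encodes a receptor of TGF-β, and its 11 peaks of 22 to 169 tags included 3 at a promoter, on chromosome 3 from 30637650 to 30673259. DCBLD2, a gene of a membrane protein, had 10 peaks up to 194 tags at 52.6 kb, and ENSG00000285635 had 9 peaks up to 223 tags within 12.8 kb. Over all chains, 215 genes had a promoter under a member. Of these, 164 (76.3%) had a vehicle peak over a promoter, beside 86.9% of the 4074 genes with a promoter under any TCF7L2 peak, and 47 had none in either list. Besides TGFBR2 and DKK1, these 47 included ABCC2, a transporter of the apical membrane, with 184 tags of TCF7L2 at its promoter, and S100A10 with 122 tags, both named after their values were seen.

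DHT left most H3K27Ac in the chains at a similar height. An H3K27Ac peak of each list was paired where each was the other's best overlap, and the ratio of DHT to vehicle height was divided by 1.07, its median over all 49555 pairs. Inside chains there were 551 pairs, with medians of 34 tags with vehicle and 38 with DHT. At least 1.5 times as tall with DHT were 40 pairs (7.26%, 5.38 to 9.73%), beside 11.4% of all pairs, and at least 1.5 times as tall with vehicle were 39 (7.08%, 5.22 to 9.53%), beside 9.32% of all. Among pairs of at least 20 tags in both lists, where counting error is smaller, these were 14 and 20 of 373 pairs, or 3.75% and 5.36%, beside 7.68% and 7.46% of all such pairs. The balance between directions depended on the limit and the scaling. At 2-fold 4.17% of the pairs in chains were taller with DHT and 0.907% with vehicle, and with heights not scaled, at 1.5-fold, 9.26% and 5.08%. Pairs at lone TCF7L2 peaks leaned to DHT, with 5.46% taller with DHT and 2.95% taller with vehicle.

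The tallest pair of a chain had at least 20 tags in both lists in 274 chains, and 9 of these were at least 1.5 times as tall with DHT and 12 with vehicle. Among these 274 tallest pairs, the highest scaled ratio was at PLCXD2, 21 tags with vehicle and 80 with DHT (3.56), although the same chain had another vehicle peak of 56 tags. The PLCXD2 pair lay between TCF7L2 peaks of the chain and not under one of them. NR2F1, the nearest start to a chain 1017 kb away, had 20 and 51 tags (2.38). The chain 125 kb from SASH1 had 34 and 79 tags (2.17), and that 145 kb from KLF14 had 28 and 63 (2.10). The chain 57.5 kb from SLC38A2, an amino acid transporter gene, had 40 and 88 tags (2.05), also in a pair between TCF7L2 peaks. LAMA2, which encodes a laminin chain, had 33 and 59 tags (1.67) with 3 of its 6 TCF7L2 peaks at the promoter.

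In the other direction, SMAD6, an inhibitor of BMP signals, had the lowest ratio among these tallest pairs, with 54 tags with vehicle and 28 with DHT (0.48). The chains nearest to TOMM20 (78 and 44 tags, 0.53) and HS3ST1 (106 and 60 tags, 0.53) followed, then MET, the receptor of hepatocyte growth factor (53 and 32 tags, 0.56), another chain of 4 peaks in RAD51B (32 and 20 tags, 0.58) and FAM184A (64 and 42 tags, 0.61), whose DHT peak lay just outside the chain. With 1 library per condition none of these has a replicate check.

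ERRFI1 showed that 1 chain could hold unequal changes. Its H3K27Ac reached 95 tags with vehicle and 147 with DHT (1.44), and another H3K27Ac peak of the same chain had 22 and 88 tags (3.73). RNF43 went the other way at a low peak, with 22 and 11 tags (0.47).

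Peaks of 1 list alone were few. Of 603 vehicle peaks in chains 41 (6.80%) had no DHT peak, beside 11.8% of all vehicle peaks, and the tallest of the 41 had 17 tags. Of 627 DHT peaks in chains 70 (11.2%) had no vehicle peak, beside 17.1% of all. The tallest of these 70 lay in chains nearest to NEBL (76 tags), MTHFD1L (57 tags) and IRS1 (55 tags), named after their values were seen.

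**Figure D4:**
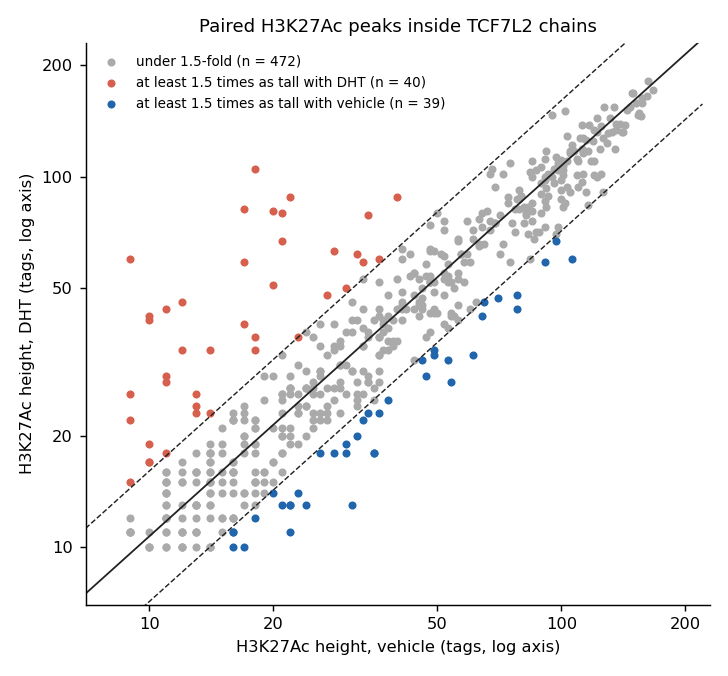
Heights in tags of the 551 H3K27Ac pairs inside chains, vehicle on the horizontal and DHT on the vertical axis, both logarithmic. The solid line is the median ratio over all pairs and the dashed lines are 1.5-fold on either side, with 40 pairs above (red) and 39 below (blue).

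Members carried the TCF7L2 letters less often at their centers than lone peaks. CTTTGAA or CTTTGAT on either strand lay within 50 bp of the center of 513 of 3248 members (15.8%, 14.6 to 17.1%), beside 17.8% of all TCF7L2 peaks, 16.3% in chains of 2 or 3 and 19.3% (18.5 to 20.0%) of lone peaks. Windows of the same 101 bases placed 400 to 500 bp away from members held them in 3.74%. Members are wider than lone peaks, with medians of 390 and 300 bp, and when the whole peak was searched the order turned, with 34.3% of members and 31.8% of lone peaks. The share rose with height, from 13.1% of members of 15 to 24 tags to 20.8% of those of 80 to 229 tags.

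The letters of AP-1, a factor of stress and growth signals, TGACTCA or TGAGTCA, were in 17.1% of member centers (15.9 to 18.5%), against 23.4% in chains of 2 or 3 and 23.6% of lone peaks. The shares in flanks were 1.97%, 2.07% and 1.54%. Those of GATA factors, AGATAA, were in 7.73% of members and 5.92% of lone peaks, with 6.93% and 6.04% in the flanks. The letters TGTTTAC of forkhead factors (2.16%, flanks 1.71%) and CACGTG, the E-box (1.23%, flanks 1.05%), were near their flanks in members. GTATCTT or GTAACTT, a reordered control of the TCF7L2 letters, was in 1.66% of members and 2.17% of flanks. A match is a description of the letters and not of a bound site.

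At least 1 member with the TCF7L2 letters was found in 348 of the 587 chains (59.3%), 1 such member in 231, 2 in 84 and 3 or more in 33. The chains without H3K27Ac of either list did not lack them. Their members held the letters in 17.5%, against 15.0% of members of the other chains.

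**Figure D5:**
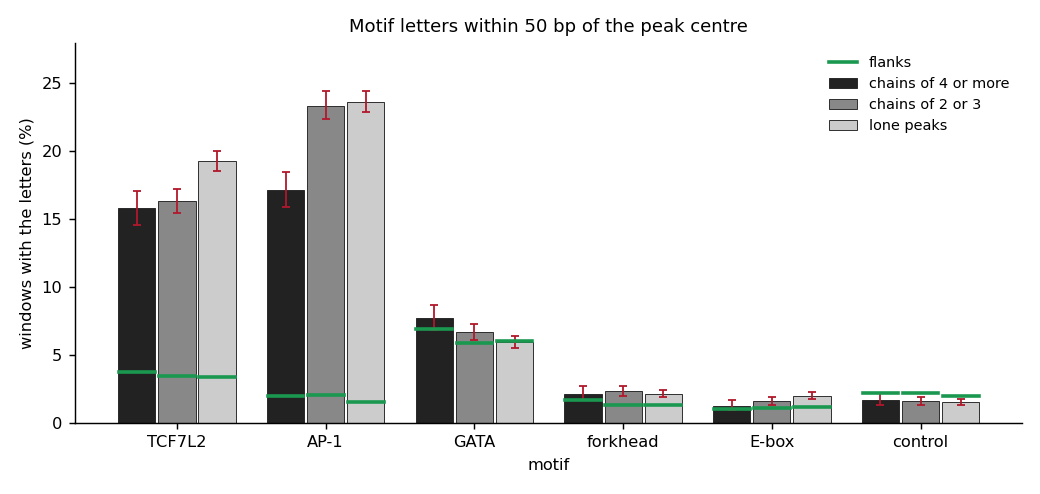
Share of 101-base windows at peak centers in percent with the letters of each motif, for members of chains of 4 or more, chains of 2 or 3 and lone peaks. Error bars are 95% Wilson intervals, and green lines are the shares in flanks of the same length. The TCF7L2 and AP-1 letters stand above the flanks, and both are rarer in members, at 15.8% and 17.1%, than at lone peaks.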

How the data were processed

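Each deposited peak has 1 value, a signal in whole tags that is the height of its pileup. For hg19, the paper names Bowtie 2 as aligner of the H3K27Ac reads and ELAND of the TCF7L2 reads, while the submitters' processing notes name CASAVA 1.8.2, Bowtie2 and BWA. The authors ran Sole-search on every library separately, with a false discovery rate that was stricter for H3K27Ac than for TCF7L2. No scaling of heights and no number of reads is given in the sources used here, so depth is unknown. A fold between lists is therefore relative to its median over all pairs. The input library was not analysed here.

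Each list was read from its deposited peaks, and peaks sharing at least 1 bp counted as overlapping. Genes came from GENCODE, release 44 mapped to GRCh37. A chain was named after the gene with a promoter under a member, otherwise the gene with most members in its body, otherwise the nearest protein-coding start. Of 198 listed symbols 196 were matched. Genes were named by rule: chains with the most peaks (12), chains of the 6 tallest members, genes of the Wnt, androgen-induced and luminal lists with a chain within 50 kb, the 6 highest and 6 lowest ratios of a chain's tallest pair, and the 6 largest chains without H3K27Ac. Members and lists were chosen with earlier results of these data known. Members were aligned back to GRCh37 with minimap2 2.31 in pieces of at least 500 bp. Of these, 3248 of 3248 mapped to 1 place with a mapping quality of at least 30. Chaining, overlap, pairing and motif search were tested on simulated data. The work used Python 3.11.15, pandas 2.3.3, pysam 0.24.0, bedtools 2.31.1 and samtools 1.23.1. Alternatives covered the gap, the smallest chain, the number of peaks, the overlap, the fold, the promoter window, the motif and the distance to genes.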

Additional observations from a re-analysis of the deposited data

How the results depend on the processing

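No paired analysis was possible because each condition had 1 library. Chains fell from 587 to 354 with a gap of 5 kb, 349 with the 15000 tallest TCF7L2 peaks and 313 with 5 peaks or more, and rose to 1264 with 3 peaks or more. Members fell from 3248 to 1766, 1842 and 2152, and rose to 5279 and, with a gap of 20 kb, 5325. Merging neighbors at most 500 bp apart, an alternative chosen after seeing the data, gave 432 chains and 2335 members.

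Members over vehicle H3K27Ac were 19.1% with the 25000 tallest H3K27Ac peaks, 27.5% with a gap of 5 kb, 27.7% with 20 kb, 23.6% with the 15000 tallest TCF7L2 peaks and 23.2% after merging. Lone peaks under the same settings were at 23.6%, 32.4%, 33.1%, 33.0% and 33.8%, above members each time. With DHT members were at 18.9% with the 25000 tallest, 25.2% with 50% of the TCF7L2 peak covered, 28.7% with 20 kb, 24.5% with the 15000 tallest and 24.7% after merging, and lone peaks at 23.7%, 32.7%, 33.6%, 33.4% and 34.3%. Leaving out chromosomes 8, 10, 12 and 17, which had the most chains per Mb and were chosen after seeing the data, gave 25.9% and 26.8%.

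Pairs taller with DHT were 4.17% at 2-fold and 3.75% with 20 tags or more in both lists. Pairs taller with vehicle were 5.08% with heights not scaled, where 9.26% were taller with DHT, and 0.907% at 2-fold. Chains with a promoter were 38.7% with a window of 2500 bp upstream to 500 bp downstream, 29.7% with a gap of 5 kb and 41.6% with 20 kb. Members with the motif were 34.3% over the whole peak, 24.4% within 100 bp, 7.91% for CTTTGAT alone and 22.7% for all 4 forms. Lone peaks were at 31.8%, 26.3%, 10.5% and 25.9%, so the order turned over the whole peak only. Of 30 Wnt genes 7 had a chain within 10 kb and 9 within 100 kb, and of 30 androgen-induced genes 0 and 1. The cause of these differences was not tested.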
